A study of Mus musculus with 12 samples.

Results

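In footpad skin of wild-type mouse embryos, 19 of the 25030 features in the authors' processed table rose at both of 2 daily steps without a large average difference from embryos lacking beta-catenin in skin. They were chosen from that table by 3 criteria on its log10 scale. The wild-type mean had to rise by at least 0.301, a 2-fold change, from E15.5 to E16.5. It had to rise by at least 0.301 again from E16.5 to E17.5. The knockout minus wild-type difference, averaged over the stages, had to lie within 0.176 of 0. The wild-type values and this average difference are therefore descriptions of how the features were chosen and carry no test. The knockout's own change from stage to stage was not itself a criterion, and it is the measure tested here. Knockout values did enter through the average difference. A feature that began level with wild type and stayed flat in knockout would have missed that bound. The choice therefore favoured a knockout rise, and counts of features called higher in knockout are not independent of it.

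RNA from frozen footpad skin of C57BL/6 embryos was hybridised to 12 Agilent arrays of probes 60 bases long. The 6 groups joined a genotype, wild type or a beta-catenin knockout restricted to skin, with 1 of 3 embryonic days (E15.5, E16.5 and then E17.5), and each had 2 arrays. Footpad RNA carried Cy3 on every array, and Cy5 carried 1 common reference, a pool of RNA from cultured mouse cell lines mixed with RNA of 129ES embryonic stem cells. The allele, the driver that restricts the deletion to skin and the number of embryos per sample are not given in the sources used here. No probe of the array came with a gene name or a genome position, so the features are given by the manufacturer's probe code and by sequence, and neither the targeted transcript nor the cell types present were analysed here. Whether the features belong to footpads alone or to skin in general was not tested, and in bulk tissue a larger number of cells of a type cannot be told apart from more RNA per cell.

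Footpads carry the sweat glands of the mouse, which bud from the epidermis late in gestation, while the same epidermis stratifies, cornifies and builds the skin barrier. Beta-catenin is the transcriptional arm of canonical Wnt signalling, where it joins TCF and LEF factors on target genes, and it also links cadherins to actin at cell junctions. Wnt signalling is required early in the formation of skin appendages, upstream of the Eda and Shh pathways.

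The probes on which the results turn are shown first, 5′ to 3′ in the sense of the array probe. All 5 in this set were well above background in footpad RNA on all 12 arrays. Z00074555-1, Z00002099-1, Z00022360-1 and Z00027092-1 are chosen features. Z00056460-1 is another array probe that was not in the authors' table and so had no part in the choice, and capitals mark the 24 bases it shares with Z00074555-1. Capitals in Z00002099-1 mark the polyadenylation signal hexamer AATAAA.
Z00074555-1: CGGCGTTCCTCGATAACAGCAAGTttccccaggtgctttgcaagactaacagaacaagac
Z00056460-1: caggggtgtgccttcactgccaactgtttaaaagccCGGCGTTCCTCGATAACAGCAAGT
Z00002099-1: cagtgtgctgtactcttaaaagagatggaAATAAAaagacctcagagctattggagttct
Z00022360-1: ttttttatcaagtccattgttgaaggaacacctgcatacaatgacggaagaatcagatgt
Z00027092-1: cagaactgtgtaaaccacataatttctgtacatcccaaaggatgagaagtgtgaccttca

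The next sequences belong to features that departed from the rest. On the log2 ratios rebuilt here, the first 4 had the highest knockout minus wild-type differences at E17.5, and AATAAA is in capitals in Z00033895-1. Z00048632-1 is shown for its lower bound on the knockout change. Z00059104-1 was the feature whose second knockout step was not called, and its capitals mark 35 bases shared with the array probe Z00025219-1, also outside the authors' table.
Z00062574-1: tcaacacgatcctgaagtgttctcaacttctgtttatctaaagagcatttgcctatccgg
Z00047134-1: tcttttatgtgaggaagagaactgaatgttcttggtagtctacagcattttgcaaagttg
Z00033895-1: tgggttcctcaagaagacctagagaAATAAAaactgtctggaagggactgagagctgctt
Z00039301-1: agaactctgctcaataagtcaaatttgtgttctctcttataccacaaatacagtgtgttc
Z00048632-1: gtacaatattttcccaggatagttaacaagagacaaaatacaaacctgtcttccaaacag
Z00059104-1: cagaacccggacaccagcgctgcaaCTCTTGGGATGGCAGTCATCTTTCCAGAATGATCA
Z00025219-1: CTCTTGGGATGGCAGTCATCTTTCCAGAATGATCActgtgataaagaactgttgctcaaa

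In the authors' table, wild-type steps of the 19 features from E15.5 to E16.5 ran from 0.303 (Z00039301-1) to 0.810 (Z00062574-1) on the log10 scale. From E16.5 to E17.5 they ran from 0.313 (Z00039301-1) to 0.753 (Z00056183-1). The first step was met by 1195 features and the second by 389, and both counts include the 34 that met both. Of these 34, 15 fell outside the genotype bound, 14 of them lower and 1 higher in knockout. A rise at both steps was thus uncommon in this table, and the genotype bound kept 19 of the features that showed it and parted 15 from them.

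The features nearest the thresholds lay close to them. At the first step, Z00039301-1 at 0.303 and Z00059104-1 at 0.304 were just inside, and Z00024654-1 at 0.289 and Z00061659-1 at 0.287 just outside. At the second step, Z00039301-1 at 0.313 and Z00026081-1 at 0.316 were just inside, and Z00030658-1 at 0.3003 and Z00042111-1 at 0.289 just outside. On the genotype term, Z00010343-1 at -0.173 and Z00022360-1 at -0.145 were just inside, and Z00070398-1 at -0.177 and Z00022648-1 at -0.200 just outside. The features outside therefore include some with nearly the same profile as those inside.

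The authors' table holds a value of exactly 1 at 1772 to 1916 features per array. Of the 19, 3 sat at exactly 1 on at least 1 E15.5 array. Z00040594-1 did so on all 4, and Z00048632-1 on both knockout arrays. Z00062574-1 held the single value 1.01 on all 4 E15.5 arrays. Wild-type first steps of Z00040594-1 (0.378) and Z00062574-1 (0.810) start from such repeated values.

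Ratios were also rebuilt from the spot intensities as log2 of footpad over reference, and all values from here on are on that scale unless the authors' table is named. On it, wild-type rises were smaller. The median wild-type step was 0.30 from E15.5 to E16.5 (range 0.01 to 1.00) and 1.03 from E16.5 to E17.5 (range 0.25 to 1.89). A wild-type change of at least 2-fold was seen at the first step in 1 feature, Z00002099-1, and at the second in 10, and both steps reached it in 1. Both steps reached it in 17 of 19 with Agilent's processed signals, in 12 with Cy3 alone and in 0 with median centring. The constant of 50 added to each corrected intensity pulls ratios of dim spots toward 0 by construction.

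Most of these features were dim at E15.5. At that stage Cy3 was well above background for 4 of the 19 on each knockout array, and for 8 and 5 on the wild-type arrays. At E16.5 it was so for 15 and 12 on the knockout arrays and for 16 and 17 in wild type. At E17.5 all 19 were well above background on all 4 arrays. Over all probe spots of the array the share well above background ran, in order of stage, from 59.0% to 65.3%, from 69.1% to 72.3% and from 63.0% to 67.9%. Most of the features thus came out of the background in both genotypes over 2 days in which array-wide detection rose and then fell. The median negative-control spot meanwhile stayed between 46.2 and 50.4 intensity units. In wild type a rise at both steps was required by the choice of features.

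By this measure the 19 fell into 3 classes. Z00074555-1, Z00002099-1, Z00022360-1 and Z00027092-1 were measurable on all 12 arrays. A further 7 were not well above background on either E15.5 knockout array but were on both knockout arrays from E16.5. The other 8 were well above background on both knockout arrays only at E17.5. The 15 features of the last 2 classes have only a bound at E15.5 in knockout. All 19 passed the filter on dim probes, but these 15 did so through the later, brighter arrays, so counts over them describe the filter as well as the time course.

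**Figure D1:**
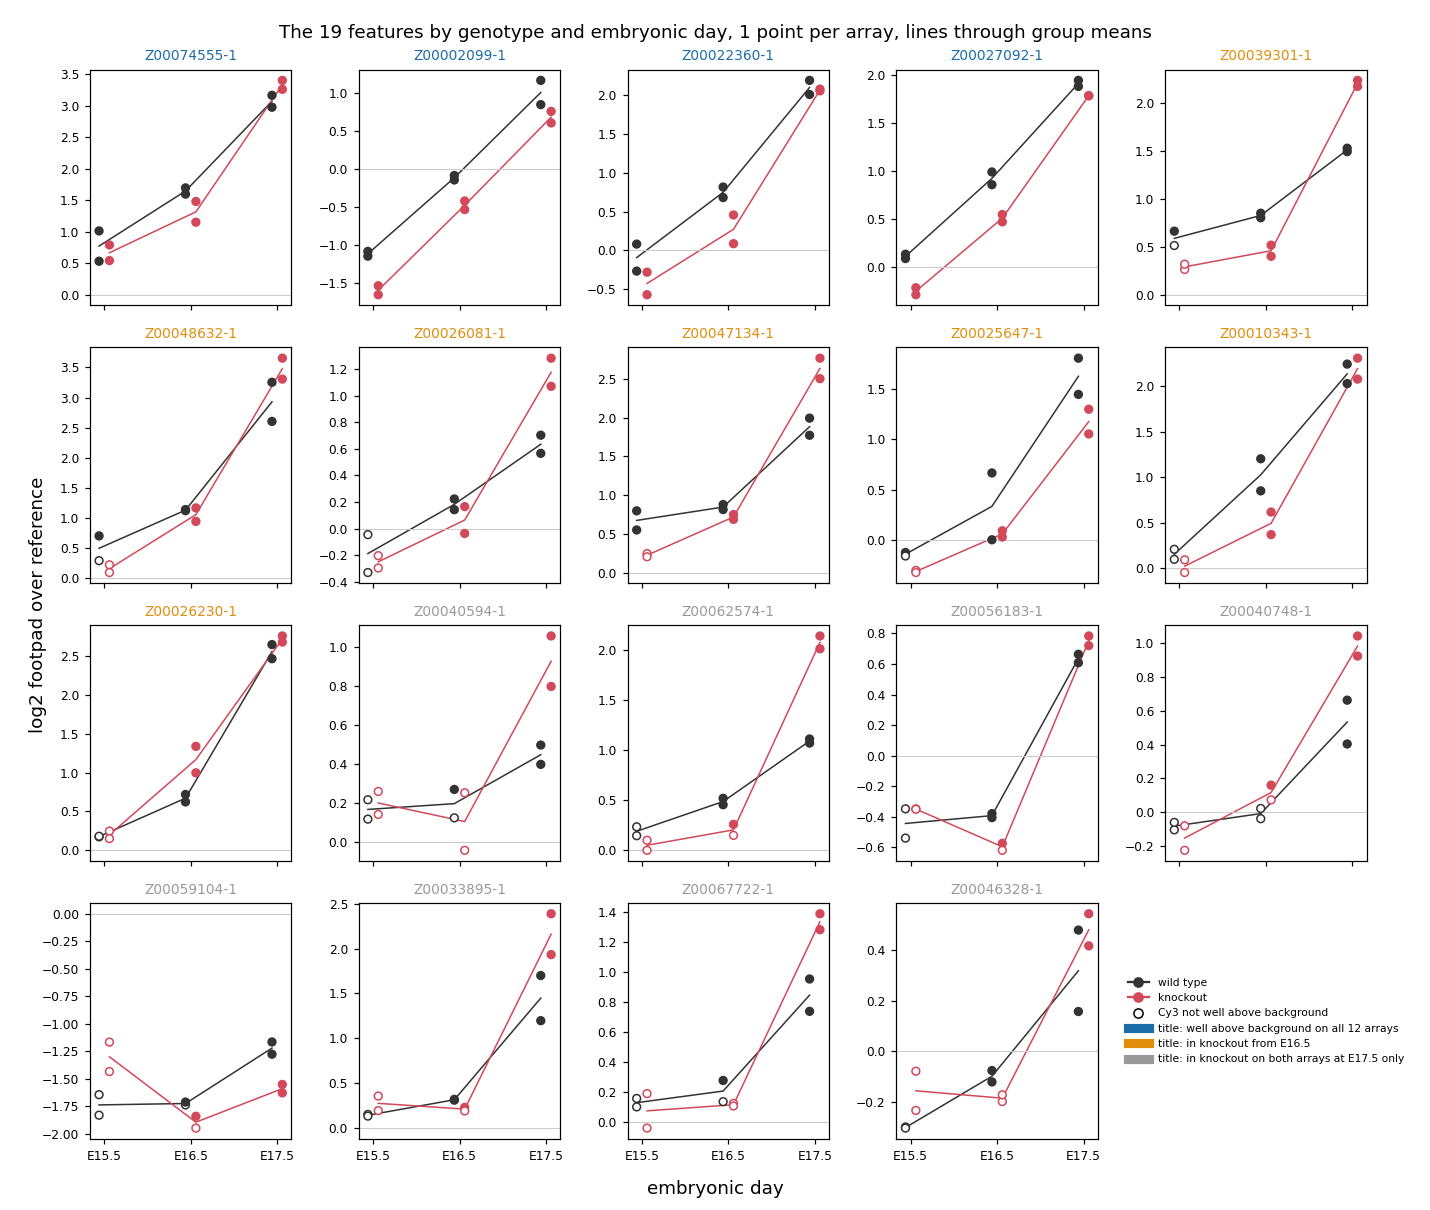
Log2 ratio of footpad over reference (vertical axis, own scale in each panel) against embryonic day for each of the 19 features, with 1 point per array (2 per genotype and stage), lines through the group means and open points where Cy3 was not well above background. The 4 panels with blue titles have no open point, and all 19 have filled points on the 4 arrays of E17.5.

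The 4 features measurable throughout rose in knockout at both steps. All 4 were called higher at each (limma, adjusted p under 0.05), by 0.65 to 1.12 from E15.5 to E16.5 and by 1.16 to 2.01 from E16.5 to E17.5. Over the 2 days they rose by 2.04 to 2.66, which is 4.13-fold to 6.34-fold. Wild-type arrays of the same slides, which chose the features, rose by 1.81 to 2.30.

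Z00074555-1 read 0.79 and 0.54 on the E15.5 knockout arrays, 1.48 and 1.15 at E16.5, and 3.40 and 3.26 at E17.5. Its wild-type arrays read 1.01 and 0.53, then 1.70 and 1.60, then 3.16 and 2.97. No array of one stage overlapped an array of the next in either genotype. In knockout it rose by 0.65 (SE 0.16; limma adjusted p = 0.0061) and then by 2.01 (SE 0.16; adjusted p = 2.48e-05). Without E16.5 knockout replicate 1 the first of these was 0.49 and missed the threshold (adjusted p = 0.0661).

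Z00002099-1 read -1.53 and -1.65 at E15.5, -0.53 and -0.42 at E16.5, and 0.61 and 0.76 at E17.5 in knockout. Its wild-type values were -1.08 and -1.14, then -0.08 and -0.14, then 1.17 and 0.85. Both knockout arrays lay below both wild-type arrays at every stage, and wild type and knockout had similar steps on this scale. In knockout they were 1.12 (SE 0.11; limma adjusted p = 1.46e-05) and 1.16 (SE 0.11; adjusted p = 6.87e-05), against 1.00 and 1.12 in wild type. With median centring the first knockout step was 1.96 and the second 1.06.

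Z00022360-1 read -0.28 and -0.57, then 0.46 and 0.09, then 2.05 and 2.07 in knockout. Wild type read 0.08 and -0.27, then 0.81 and 0.68, then 2.18 and 2.00. The knockout lay below wild type at the first 2 stages, and the genotypes overlapped at E17.5. Its knockout steps were 0.70 (SE 0.15; limma adjusted p = 0.00273) and 1.79 (SE 0.15; adjusted p = 3.12e-05).

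Z00027092-1 read -0.22 and -0.30, then 0.54 and 0.47, then 1.79 and 1.79 in knockout. Wild type read 0.13 and 0.08, then 0.86 and 0.99, then 1.95 and 1.88. The knockout arrays lay below the wild-type arrays at all stages, by 0.36, 0.42 and 0.13 between the means, although with median centring the difference at E17.5 was 0.026 the other way. Its knockout steps were 0.76 (SE 0.08; limma adjusted p = 2.46e-05) and 1.28 (SE 0.08; adjusted p = 6.17e-06).

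A second probe gave a reading of part of the Z00074555-1 sequence that the choice of features did not use. It was made on the same RNA and arrays, so it is not independent of that choice. Z00056460-1, which shares 24 of its 60 bases with Z00074555-1 on the same strand, was well above background on all 12 arrays. In knockout it read 0.77 and 0.54, then 1.37 and 0.97, then 3.35 and 3.16. In wild type it read 1.07 and 0.53, then 1.60 and 1.53, then 3.04 and 2.87. The knockout steps were 0.52 (SE 0.18; limma adjusted p = 0.0291) and 2.09 (SE 0.18; adjusted p = 3.12e-05), and the wild-type steps 0.76 and 1.39. The first knockout step lost its call with Agilent's processed signals, with array weights, without E15.5 knockout replicate 2 (0.40) and without E16.5 knockout replicate 1 (0.32, limma adjusted p = 0.234). The second kept its call under all alternatives run on it.

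**Figure D2:**
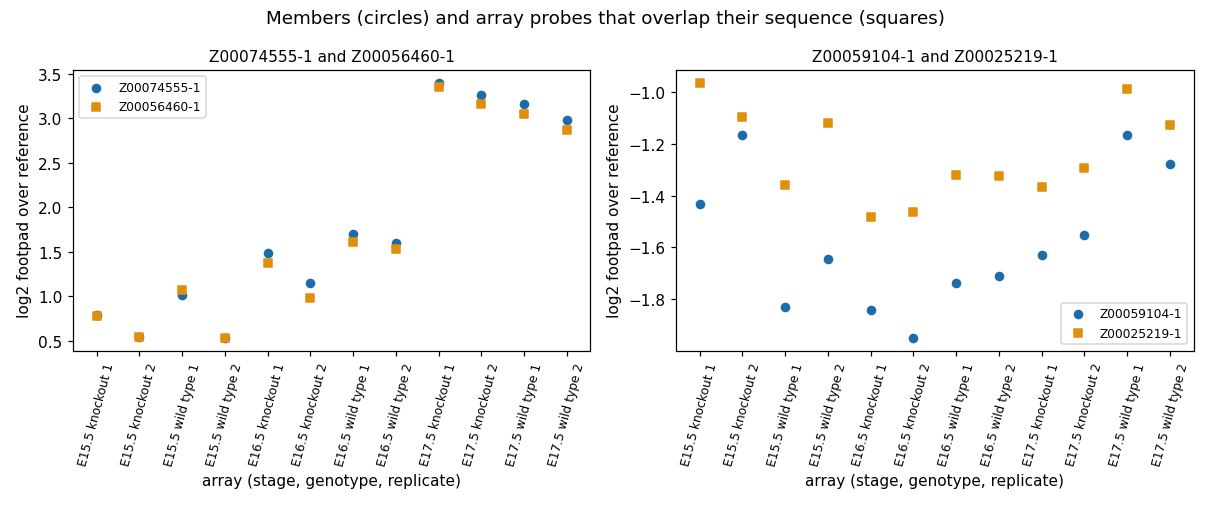
Log2 ratio of footpad over reference on each of the 12 arrays for 2 of the chosen features (circles) and the array probes that overlap their sequence (squares). In the left panel the pair moves together, from between 0.53 and 1.07 at E15.5 to between 2.87 and 3.40 at E17.5, and in the right panel neither probe rises steadily.

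Across all 19, more features were called higher in knockout at the second step than at the first. From E15.5 to E16.5, 10 were called higher, 2 lower and 7 were not called (limma, adjusted p under 0.05). Of the 30367 probes tested, 25.5% were called higher and 30.3% lower at that step. The 2 called lower, Z00056183-1 and Z00059104-1, had no E15.5 knockout array well above background. The same held for features called higher, 5 in the class above background in knockout from E16.5 and 1 in the class of 8. With median centring 3 were called lower. None of the 19 was called lower with Agilent's processed signals, Cy3 alone or the authors' table. From E16.5 to E17.5, 18 were called and all of them were higher, where 23.6% of all probes were called, 4707 of them higher and 2450 (8.07% of all) lower. From E15.5 to E17.5, 18 were called higher and 1 lower, where 27% of all probes were called higher and 28.8% lower. With those 3 scalings all 19 were called higher over both steps. The matching shares of all probes, in the order the scalings were named, were 30.1%, 28.7% and 22.0% for a rise. For a fall they were 26.5%, 28.3% and 21.3%. The members' median differences were 0.31, 1.35 and 1.91, and those of all probes were -0.02, 0.02 and -0.02. The first of these is measured from values mostly at background. It was 1.32 with processed signals, 1.30 in the authors' table, 0.96 with Cy3 alone and -0.004 with median centring. The second was 2.13 with processed signals and in the authors' table, 2.83 with Cy3 alone and 1.11 with median centring.

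Every stage had a separate slide, so in these steps what came with the day and what came with its slide cannot be told apart. The knockout arrays also shared their slides with the wild-type arrays that chose the features, and what the slide adds to both genotypes was not tested. With median centring in place of loess the median of all probes moved from -0.02 to 0.16 at the first step and from -0.02 to 0.20 over both. The share of calls that were higher moved from 45.7% to 70.6% at the first step and from 48.4% to 75.4% over both. At the second step that share was 65.8% with loess, 52.5% with Agilent's processed signals, 46.9% with Cy3 alone and 49.6% in the authors' table. Under median centring, 5 of the 19 were called higher at the first step, where 42.1% of all probes were, and 19 at the second, where 8.78% were. Without E16.5 knockout replicate 1 the first count was 6.

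The wild-type median steps of the 19 were 0.30 and 1.03. With processed signals their order turned, at 1.71 and 1.29. The knockout step exceeded the wild-type step in 5 features at the first step, in 16 at the second and in 17 over both. The count of 16 at the second step was the same with median centring, processed signals, Cy3 alone and the authors' table. The count of 5 at the first step was 6 with median centring and Cy3 alone and 9 with processed signals and the authors' table. These counts are a description, because the wild-type steps chose the features, and the same share over all probes was not computed. In the authors' table the second knockout step also exceeded the wild-type step in the 15 features outside the genotype bound, except in Z00077373-1. At least a 2-fold change was reached in knockout by 1 feature at the first step and by 15 at the second. In the authors' table, where the wild type met the threshold at both steps by choice, the knockout mean met it at both in 10 of 19.

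**Figure D3:**
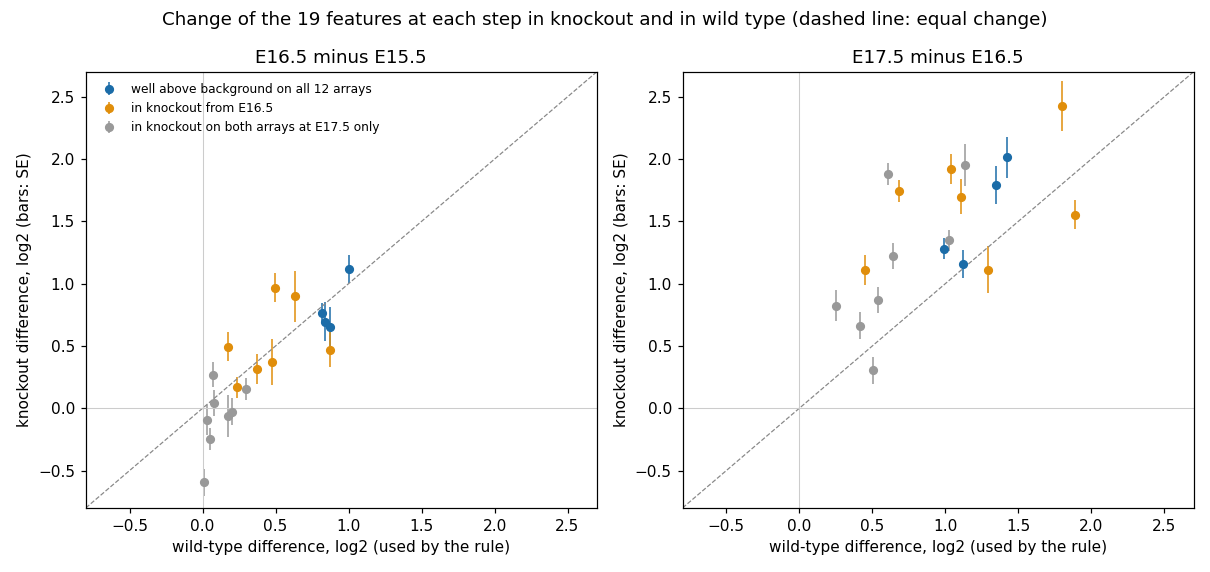
Knockout difference (vertical, log2, bars are the SE of the fit on 2 arrays per group) against wild-type difference (horizontal, log2) for the 19 features, at the first step on the left and the second on the right, with a dashed line at equal change. On the left 5 points lie above the line and several grey ones near 0, and on the right 16 of 19 lie above it.

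The 7 features that came above background in knockout by E16.5 all rose at the second step, by 1.11 to 2.43. At the first step 5 of them were called higher, with differences of 0.17 to 0.97 over all 7, measured from E15.5 values at background. Z00048632-1 had the highest bound printed here. It read 0.22 and 0.09 at E15.5 in knockout, both not well above background, then 1.17 and 0.94, then 3.31 and 3.65. Its wild-type arrays read 0.70 and 0.29, then 1.14 and 1.12, then 2.60 and 3.25. Its second knockout step was 2.43 (SE 0.20; limma adjusted p = 2.84e-05). From E15.5 values at background to E17.5 its knockout ratio rose by 3.32 (limma adjusted p = 4.43e-07). The bound, which carries no test, put E17.5 at least 6.57-fold above E15.5 in knockout. Such a bound sets the mean Cy3 level of the later group against the higher of the probe's own signal and the lowest signal well above background on each earlier array. Where the probe's own signal was the higher on both earlier arrays, the value is a plain difference of Cy3 means. It is then given without "at least", since it is no lower limit. With no dye swap the bounds are open to dye bias.

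Z00039301-1 read 0.26 and 0.32, then 0.52 and 0.40, then 2.17 and 2.23 in knockout. Wild type read 0.66 and 0.51, then 0.85 and 0.80, then 1.53 and 1.49. Knockout was the lower genotype on every array of E15.5 and E16.5 and the higher on every array of E17.5. Its second knockout step was 1.74 (SE 0.09; limma adjusted p = 1.13e-06) against 0.68 in wild type.

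Z00047134-1 followed the same course. It read 0.24 and 0.20, then 0.75 and 0.69, then 2.50 and 2.77 in knockout, and 0.80 and 0.55, then 0.81 and 0.88, then 1.77 and 1.99 in wild type. At E15.5 the wild-type arrays were well above background and the knockout arrays were not. From E15.5 to E16.5 the knockout ratio rose by 0.49 (limma adjusted p = 0.00451), and the bound, which carries no test, was at least 1.24-fold. At the second step knockout rose by 1.92 (SE 0.12; adjusted p = 4.57e-06) and wild type by 1.04. From E15.5 to E17.5 it was at least 3.82-fold higher in knockout.

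Z00010343-1 was at least 3.82-fold higher at E17.5 than at E15.5 in knockout, Z00039301-1 at least 2.93-fold, Z00025647-1 2.68-fold and Z00026081-1 at least 2.29-fold. Their knockout E17.5 values were 2.08 and 2.31, 2.17 and 2.23, 1.30 and 1.05, and 1.07 and 1.28 in that order. For Z00025647-1 the fold is a plain difference of Cy3 means, measured from E15.5 values at background and with no test. Z00025647-1 was the only one of the 7 with both knockout arrays below both wild-type arrays at E17.5, where wild type read 1.80 and 1.45. One of its E16.5 wild-type arrays, at 0.67, stood apart from the other, at 0.00.

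Z00026230-1 stood out by its reference channel. In knockout it read 0.25 and 0.15, then 1.34 and 1.00, then 2.68 and 2.76, and in wild type 0.17 and 0.18, then 0.72 and 0.62, then 2.65 and 2.47. Its second knockout step was 1.55 (SE 0.12; limma adjusted p = 1.45e-05). The same step was 0.15 and not called when Agilent's processed signals were used (limma adjusted p = 0.864), and in the authors' table it was also 0.15 (adjusted p = 0.952). The mean log2 Cy5 level of this probe was 5.93, 6.00 and 6.61 in order of stage, although the reference RNA was the same on every array. The part of that rise in the ratio was not tested.

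For the other 8 features, the first knockout step started from values at background and cannot be sized. Of these 8, 7 were called higher at the second step, with differences of 0.66 to 1.95; Z00059104-1 was not. Z00062574-1 read 0.10 and -0.01, then 0.25 and 0.14, then 2.14 and 2.01 in knockout. Wild type read 0.23 and 0.14, then 0.52 and 0.45, then 1.11 and 1.07. The knockout step of 1.88 (SE 0.09; limma adjusted p = 8.19e-07) stood beside 0.61 in wild type. Its knockout minus wild-type difference at E17.5 was 0.99 on this scale and 0.20 with processed signals. It was 0.65 with median centring, 1.29 with Cy3 alone and 1.23, in log2, in the authors' table.

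Z00033895-1 read 0.19 and 0.36, then 0.23 and 0.19, then 1.93 and 2.39 in knockout, and rose by 1.95 at the second step (SE 0.17; limma adjusted p = 3.12e-05). Wild type read 0.15 and 0.13, then 0.32 and 0.31, then 1.20 and 1.70. From E15.5 to E17.5 it was at least 2.83-fold higher in knockout. Z00056183-1 rose by 1.35 in knockout at the second step (SE 0.09; adjusted p = 5.50e-06) and by 1.03 in wild type.

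The rest of this class had smaller rises. The second knockout steps were 1.22 for Z00067722-1, which was at least 2.13-fold higher, and 0.87 for Z00040748-1. They were 0.82 for Z00040594-1, at least 1.53-fold, and 0.66 for Z00046328-1, 1.44-fold as a plain difference of Cy3 means. All 4 were called (limma adjusted p from 3.51e-05 to 0.00175). From E15.5 to E17.5 in knockout, Z00040594-1 was at least 1.38-fold higher and Z00046328-1 at least 1.37-fold. Z00056183-1 was 1.84-fold higher as a plain difference of Cy3 means, from E15.5 values at background and with no test.

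Z00059104-1 had the least settled course. In knockout it read -1.43 and -1.17 at E15.5, -1.84 and -1.95 at E16.5, and -1.63 and -1.55 at E17.5. In wild type it read -1.83 and -1.64, then -1.74 and -1.71, then -1.17 and -1.28. No E15.5 value in either genotype was well above background, so the direction from that stage is not settled. Over both steps the knockout difference was -0.29 on this scale, 0.023 with median centring, 1.55 with processed signals, 1.25 with Cy3 alone and 1.55 in the authors' table. From E16.5 to E17.5 it was 0.30 (limma adjusted p = 0.0643).

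The overlapping probe Z00025219-1, not well above background before E17.5, read -0.96 and -1.10, then -1.48 and -1.46, then -1.37 and -1.29 in knockout. In wild type it read -1.36 and -1.12, then -1.32 and -1.32, then -0.99 and -1.13. Its second knockout step was 0.14 (limma adjusted p = 0.348). At E17.5 both probes were lower in knockout, by -0.37 for Z00059104-1 and -0.27 for Z00025219-1, with no overlap of arrays.

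Between genotypes, the 19 features lay mostly below wild type in knockout at E16.5 and mostly above it at E17.5, while at E15.5 the balance depended on the scaling. In order of stage the median knockout minus wild-type differences were -0.11, -0.17 and 0.26. It was below 0 in 13, 17 and 5 of the 19, where 47.7%, 50.8% and 48.4% of all probes were below 0. Medians over all probes were 0.01, -0.00 and 0.01. At E15.5 the count below 0 was 8 with median centring, 10 with Cy3 alone, 14 with processed signals and 12 in the authors' table. At that stage only 4 of the 19 were well above background on each knockout array. These values are a description, because the wild-type arrays chose the features and because a bound on the average over stages leaves a negative difference at one stage to be offset at another. Genotype also followed array position, with knockout at positions 1 and 2 and wild type at 3 and 4 of every slide, so the 2 cannot be told apart.

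Over replicates the knockout arrays lay wholly below the wild-type arrays in 9, 13 and 4 features in order of stage. They lay wholly above in 3, 2 and 12. With 2 arrays per group such separation can also arise by chance, and the same counts over all probes were not computed. At E15.5 the 9 included Z00062574-1 and Z00010343-1, which were dim on all 4 arrays. The 3 wholly above at that stage, Z00059104-1, Z00033895-1 and Z00046328-1, were equally dim there. At E17.5 the largest differences were 0.99 for Z00062574-1, 0.75 for Z00047134-1, 0.71 for Z00033895-1 and 0.69 for Z00039301-1. The lowest were -0.45 for Z00025647-1 and -0.37 for Z00059104-1. The order of the highest depended on the scaling, with Z00033895-1 at 1.71 and Z00040594-1 at 1.41 above the others with processed signals. At E16.5 the highest was 0.50 for Z00026230-1, then 0.12 for Z00040748-1, and the lowest -0.53 for Z00010343-1 and -0.48 for Z00022360-1. At E15.5 the highest were 0.44 for Z00059104-1 and 0.14 for Z00046328-1, both on dim values, and the lowest -0.48 for Z00002099-1 and -0.45 for Z00047134-1.

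The 4 features measurable on all arrays differed from this course at E17.5. Their knockout minus wild-type differences ran from -0.48 to -0.11 at the first stage, from -0.48 to -0.33 at the next and from -0.32 to 0.26 at the last. Medians were -0.35, -0.39 and -0.08. At E17.5 Z00074555-1 was above wild type, Z00002099-1 and Z00027092-1 (not with median centring) were below it and Z00022360-1 overlapped. The median of the 19 at E15.5 depended on the scaling, at 0.020 with median centring and -0.31 in the authors' table, whereas at E16.5 and E17.5 it kept its sign under all 5 scalings.

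**Figure D4:**
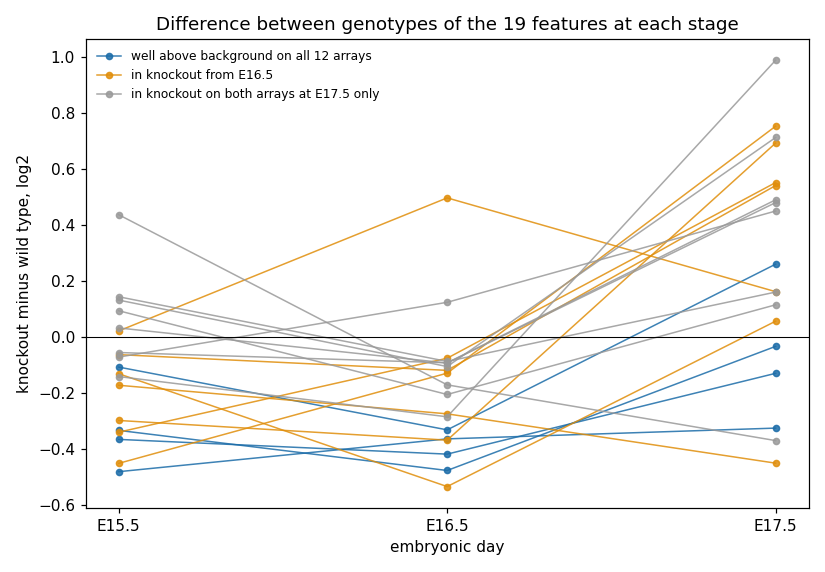
Knockout minus wild-type difference (log2, means of 2 arrays per group) of each of the 19 features by embryonic day, with lines joining a feature and colours for the detection classes. In order of stage 13, 17 and 5 features lie below 0, and the blue lines of the 4 features measured on all arrays end between -0.32 and 0.26.

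The 15 features that met both wild-type steps but not the genotype bound began from the same wild-type pattern. Their average knockout differences in the authors' table ran from -0.177 (Z00070398-1) to -0.771 (Z00077373-1), with Z00048722-1 the exception at 0.213. Z00077373-1 had a mean of 1.00 in knockout at every stage, beside the low value of 1 that recurs in the table, so its knockout steps of 0 show no measured course, while its wild type rose by 0.724 and 0.391. Z00028697-1, with an average difference of -0.571, changed by -0.038 at the first knockout step and by 2.19 at the second, against 0.414 and 1.28 in wild type. These are the values of the criterion that parted the sets, so no difference between them is tested.

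The common reference was read on the same spots. In 9 of the 19 features Cy5 was well above background on all 12 arrays. Their reference levels were averaged over both genotypes at each stage, after loess within arrays and a scaling of mean intensity between arrays. These levels changed by a median of -0.02 at the first step (range -0.07 to 0.09) and of -0.09 at the second (range -0.17 to 0.19). The second knockout steps of the same 9 features, on knockout arrays alone, ran from 0.30 (Z00059104-1) to 2.01 (Z00074555-1). What the slide adds to the footpad channel was not tested. In the other 10 the reference was at or near background on some or all arrays. Z00026230-1 is one of these 10, with Cy5 well above background on 7 arrays. Its second knockout step was 3.08 with Cy3 alone and 0.15 with processed signals. How far the ratios of these 10 rest on the footpad channel was not tested.

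In sequence the 19 probes had little in common that the array as a whole did not. Their median GC content was 40% (range 35% to 53.3%), against 43.3% over the 42006 probes. The hexamer AATAAA, searched on the probe strand, was in 2 of 19 (10.5%), Z00002099-1 and Z00033895-1, against 6.93% of all probes. On the opposite strand it was in 0 of 19, against 3.36%. The variant ATTAAA was in 0 on either strand, against 3.19% on the probe strand and 2.3% on the other. At least 1 forward reading frame without a stop codon was open over the whole probe in 18 of 19 (94.7%), Z00047134-1 being the exception, against 83.4% of all probes. No probe of the 19 lay whole within a RefSeq promoter window, where 266 probes of the array did. Apart from the 2 pairs shown, no array probe shared 20 or more consecutive bases with any of the 19.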

How the data were processed

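Footpad skin RNA was measured on 12 two-colour arrays, 2 per genotype and stage. Agilent Feature Extraction (9.5.1.1, per the file headers) read the spots, and the deposited array files hold spot intensity per channel. The authors' table of 25030 features holds processed values on a log10 scale; the sources used here do not state how its features were chosen or its values scaled. Differences between its columns correlated at 0.899 to 0.993, across spots, with those between Agilent's footpad over reference ratios, so a higher value stands for more footpad signal. The flags for background, saturation and outliers are other deposited values.

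Mean intensities were corrected with normexp (offset 50, median local background) in limma 3.58.1 (R 4.3.3) and normalized by loess within arrays, giving the 1417 control spots no weight. Saturated spots stayed in, outlier spots did not, and a probe's spots were averaged. From 42006 probes the filter removed 11638 whose Cy3 was not well above background on at least 2 arrays, and 1 more had outlier spots. limma's moderated test ran on 6 group means (6 residual and 4.7 prior degrees of freedom), with Benjamini-Hochberg adjustment over 30367 probes. It was tested on simulated data. The labels do not say that samples of a group came from separate embryos, so p-values reflect only how far these samples spread, and that spread may be technical.

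The features and lists were chosen with earlier results of these data known. Gene lists and cell type markers were not used here, since no probe had a gene name. The rule for named features took the 6 highest wild-type rises in the authors' table, the 4 highest and 4 lowest knockout rises, the 2 highest and 2 lowest genotype differences per stage, and those nearest the thresholds. Z00027092-1 fell outside it and was named after its values were seen, as were the overlapping probes. The number of arrays limits the precision. Alternatives covered normalization, background, filters, weights and samples.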

Additional observations from a re-analysis of the deposited data

Results flagged for a closer look

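In 3 features the knockout arrays lay below the wild-type arrays at E16.5 and above them at E17.5, among stages at which all 4 arrays were well above background. For Z00074555-1 the knockout minus wild-type difference was -0.33 at E16.5 and 0.26 at E17.5. For Z00039301-1 it was -0.37 and then 0.69. For Z00047134-1 it was -0.13 and then 0.75. The difference between the stages was not tested, because the wild-type arrays chose the features and the bound on their average difference favours opposite signs. All 6 directions were the same with median centring, processed signals, Cy3 alone and the authors' table. The overlapping probe Z00056460-1 read -0.39 at E16.5 and 0.30 at E17.5, also with no overlap of arrays. The choice did not use its values. It shares sequence, RNA and arrays with Z00074555-1, so it is not independent of the choice.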

How the results depend on the processing

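The counts of features called higher in knockout stayed between 15 and 19 at the second step over the planned settings on all arrays. They also stayed between 15 and 19 over both steps, with 15 of 16 features tested under the stricter filter. In these settings the share of all probes called higher at the second step ran from 7.76% (authors' table) to 24.3% (array weights). Over both steps that share ran from 19.6% (no filter on dim probes) to 43.4% (median centring). At the first step the count of 10 fell to 5 with median centring and ran from 5 to 12 over the planned settings on all arrays, where the share of all probes called higher ran from 18.2% to 42.1%, the highest with median centring. It ran from 6 to 9 with 1 array left out, being 6 without E16.5 knockout replicate 1. The median knockout minus wild-type difference at E15.5 was 0.020 with median centring, -0.29 with processed signals, -0.17 with Cy3 alone and -0.31 in the authors' table, and -0.185 to -0.075 with 1 array left out. At E16.5 it was -0.53, -0.52 and -0.45 with processed signals, Cy3 alone and the authors' table, and -0.23 to -0.12 with 1 array left out. At E17.5 it was 0.47 with Cy3 alone and 0.17 to 0.33 with 1 array left out. The cause of these shifts was not tested. With the replicate number as a replicate block the counts were 10, 18 and 18; deviations of same-numbered knockout samples correlated at -0.02, 0.08 and -0.08, so the numbers were not taken as pairs. No single-feature step that was tested on detected values changed direction. Z00059104-1 passed the threshold at the second step with median centring (0.34, limma adjusted p = 0.0332) and array weights (0.30, adjusted p = 0.00818). For 15 features the E15.5 knockout level is limited by the signal over background.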
